A study of Mus musculus with 4 samples.

Results

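Molecular chaperones bind unfolded or partly folded proteins and help them reach, or regain, their shape. The HSP70 and HSP90 families use ATP in the cytosol, the endoplasmic reticulum (ER) and the mitochondria, the lectin chaperone calnexin holds glycoproteins in the ER, and the chaperonins enclose a client in a chamber. In T cells that secrete cytokines, as T-helper 2 (Th2) cells secrete interleukin-4, the ER set serves proteins bound for the cell surface or for export. Described here are 10 of the 50600 genes counted, namely 9 chaperone genes and 1810014B01Rik, a gene on the strand opposite Hsp90b1. They were chosen by name with their counts in these libraries in view, so their levels are given as a description, with no test.

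The samples were primary Th2 cells of C57BL/6NJ mice, sequenced as RNA in 4 libraries that form 1 group of biological replicates, without a control or another cell type. The labels give age as unknown, do not give the sex, carry the same donor record for all 4 libraries, and do not tie a replicate to a mouse or culture. Any p-value below thus reflects only the variation among these 4 libraries, which may be technical. Each value is the number of read pairs, or fragments, assigned to a gene's exons on 1 strand.

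Depth ran from 1804217 to 2711948 counts per library. A count of 0 allows up to 3 counts, or 1.11 to 1.66 CPM (counts scaled to the same library total), a limit that covers counting error only. Genes with exon bases that also belong to an opposite-strand gene held 92.2% to 95.9% of the counts, and CT010467.1 alone held 1.02% to 28.6%. The strand that the library kit keeps is not given in the sources used here, so a count below is a count on the strand chosen by the authors and is not read as the amount of that gene's messenger RNA. Markers of T cells had counts in every library for 7 of 7 genes, with a summed level of 27.0 to 83.1 TPM (counts per exon length scaled to the same total in each library). Of the other marker lists, 0 of 3 NK cell genes, 1 of 2 CD8 T cell genes and 2 of 4 macrophage genes had counts, with Cd8a, Adgre1 and Lyz2 at 0. The B cell genes Ms4a1 and Cd79b were at 0 in all libraries, and Cd79a had 9 to 15 counts. The highest of these markers was Csf1r, at 983 to 1026 counts, which overlaps an opposite-strand gene over 871 exon bases. With it the macrophage genes summed to 127 to 179 TPM, more than the T cell genes in every library. The B cell genes summed to at most 8.16 TPM and the CD8 T cell genes to at most 2.19 TPM. Chi-square over degrees of freedom was taken over all genes with a summed count of at least 20, CT010467.1 included. It was 2.50 between replicates 1 and 2 and 41.7 to 94.3 for each pair with replicate 3 or 4. The part of CT010467.1 in these values was not tested. By this measure replicates 3 and 4 stood apart from replicates 1 and 2 and from each other. None was a copy of another.

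Hsp90b1 encodes the HSP90 of the ER, which folds integrins and Toll-like receptors. It lies on the minus strand at chr10:86690209-86705509 (mm10), and 1810014B01Rik lies on the plus strand at chr10:86685525-86694806. Their exons share 415 bases, which are 10.3% of the exon length of Hsp90b1 and 15.6% of that of 1810014B01Rik. In transcript Hsp90b1-201 of GENCODE M21, which has 18 exons, the shared bases are all coding and lie in exons 12, 13 and 16. These exons are shown because they are where a fragment of either strand could be given to only 1 of these genes by its direction. They read as follows on the Hsp90b1 strand, 5′ to 3′, from the GENCODE transcript on GRCm38, with the shared bases in capitals.
Hsp90b1 exon 12, chr10:86694350-86694619, minus strand: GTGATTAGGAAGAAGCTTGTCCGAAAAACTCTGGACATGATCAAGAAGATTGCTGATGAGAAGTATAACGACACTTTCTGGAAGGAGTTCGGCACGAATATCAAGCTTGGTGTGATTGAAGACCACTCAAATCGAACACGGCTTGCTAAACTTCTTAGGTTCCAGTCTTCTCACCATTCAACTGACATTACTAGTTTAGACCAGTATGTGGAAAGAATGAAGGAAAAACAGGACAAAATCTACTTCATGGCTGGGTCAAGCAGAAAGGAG
Hsp90b1 exon 13, chr10:86693914-86694159, minus strand: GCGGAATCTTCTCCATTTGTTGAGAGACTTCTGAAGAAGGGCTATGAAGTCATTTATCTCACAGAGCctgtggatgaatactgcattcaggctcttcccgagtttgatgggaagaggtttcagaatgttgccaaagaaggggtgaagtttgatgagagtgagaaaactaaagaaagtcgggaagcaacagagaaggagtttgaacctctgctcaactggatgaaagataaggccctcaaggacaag
Hsp90b1 exon 16, chr10:86692140-86692295, minus strand: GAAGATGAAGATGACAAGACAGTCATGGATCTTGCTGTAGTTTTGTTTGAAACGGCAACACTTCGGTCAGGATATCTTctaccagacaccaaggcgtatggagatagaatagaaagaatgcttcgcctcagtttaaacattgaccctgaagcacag
All 270 bases of exon 12 are shared, as are the first 67 of exon 13 and the first 78 of exon 16.

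**Figure D1:**
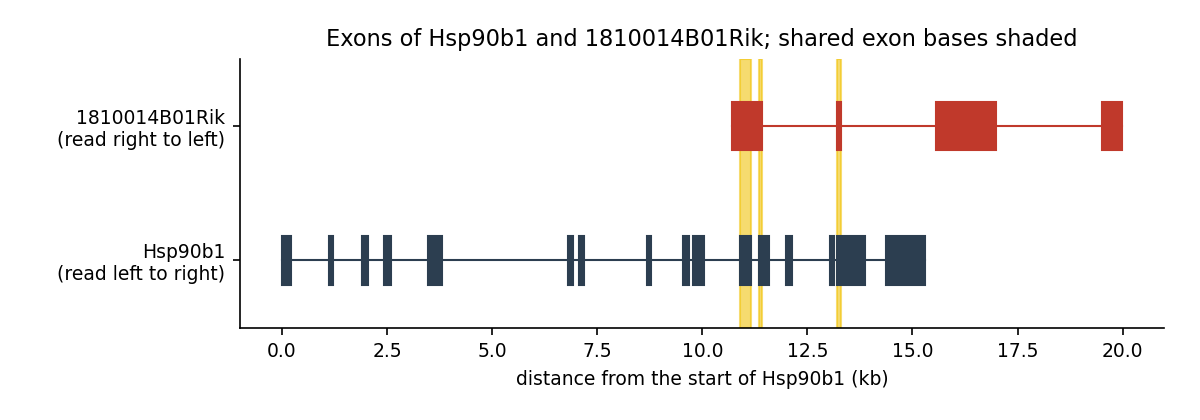
Merged exons of 1810014B01Rik (top row) and Hsp90b1 (bottom row) as boxes, against the distance in kilobases from the start of Hsp90b1. Shading marks the 415 exon bases that both genes share, which fall in 3 stretches of Hsp90b1.

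1810014B01Rik had 16283, 15484, 18184 and 13400 counts in replicates 1 to 4, against 212, 235, 270 and 101 counts for Hsp90b1. The opposite gene was thus the higher of the pair in all 4 libraries. Its count was 76.8-, 65.9-, 67.3- and 133-fold that of Hsp90b1 in replicates 1 to 4, with a mean log2 ratio of 6.35 ± 0.47 (SD, n = 4). Per exon base the mean log2 ratio was 6.96. The mean level was 4286 ± 688 TPM for 1810014B01Rik and 36.5 ± 13.3 TPM for Hsp90b1 (SD, n = 4). 1810014B01Rik took 0.757% ± 0.135 of a library's counts, and the 9 chaperones together took 0.130% ± 0.0589 (SD, n = 4). It held 5.73-, 4.45-, 5.52- and 12.0-fold the summed count of the 9 chaperones in replicates 1 to 4. How much of either count came from RNA of the other gene was not tested. On its own strand Hsp90b1 also shares 84 exon bases with Gm15344 and 133 with Gm25745, which had at most 1 count in any library, and fragments there could have been left out or split.

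Among the 9 chaperones, the other ER genes, Hspa5 and Canx, had lower mean TPM than Hsp90b1. Genes of the ER list below could stand higher, such as Calr at a mean of 53.7 TPM. Hspa5, the ER member of the HSP70 family and a sensor partner in the unfolded protein response, lies at chr2:34771970-34777547 on the plus strand. It had 133, 153, 127 and 49 counts in replicates 1 to 4, a mean of 20.0 ± 9.29 TPM (SD, n = 4). Canx, which encodes calnexin, lies at chr11:50293961-50325673 on the minus strand. Its counts were 114, 112, 115 and 29 in replicates 1 to 4, a mean of 14.4 ± 7.16 TPM (SD, n = 4). For Hsp90b1, Hspa5 and Canx alike, replicate 4 was below each of the other libraries in CPM. The log2 ratio of Hsp90b1 to Hspa5 in TPM was 0.92 ± 0.24 and was above 0 in each of the 4 libraries.

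Among the cytosolic genes of the 9 chaperones, Hsp90ab1 stood highest. It encodes the constitutive HSP90 of the cytosol and lies at chr17:45567775-45573271 on the minus strand. The counts were 1350, 1641, 1803 and 410 in replicates 1 to 4, a mean of 313 ± 151 TPM (SD, n = 4). Hsp90aa1, the stress-inducible HSP90 at chr12:110690605-110702728 on the minus strand, had 324, 406, 277 and 45 counts, a mean of 49.7 ± 32.4 TPM (SD, n = 4). Hspa8, the constitutive HSP70 at chr9:40800984-40810087 on the plus strand, had 297, 416, 328 and 69 counts, a mean of 47.4 ± 27.5 TPM (SD, n = 4). Replicate 4 was again the lowest library for each of these genes, and replicate 2 the highest in CPM. The log2 ratio of Hsp90ab1 to Hsp90aa1 in TPM was 2.88 ± 0.55, and was 2.45, 2.40, 3.09 and 3.56 in replicates 1 to 4. Hspa8 shares 262 exon bases in all with 3 small nucleolar RNA genes on its own strand, Snord14c, Snord14d and Snord14e, which had 0 counts. Reads could also be split between near-identical family members and pseudogenes, so levels of these families are uncertain to that extent.

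The mitochondrial chaperones differed from one another in how replicate 4 stood. Hspd1, the chaperonin that forms the folding chamber, lies at chr1:55077835-55088243 on the minus strand and had 248, 312, 220 and 359 counts in replicates 1 to 4. Its mean was 77.8 ± 20.0 TPM (SD, n = 4), and replicate 4 lay within the range of the others in CPM. Hspe1, the co-chaperonin that caps the chamber, lies head to head with it on the plus strand at chr1:55088132-55091307. It had 24, 43, 45 and 32 counts, a mean of 17.3 ± 4.44 TPM (SD, n = 4), and again replicate 4 lay inside the range of the others. The first exons of this pair share 112 bases, which are untranslated in Hspe1-201. Hspd1 exceeded Hspe1 in all 4 libraries, by a mean log2 ratio of counts of 2.98 ± 0.54, or 2.14 per exon base. Hspa9, the mitochondrial HSP70 on the minus strand of chromosome 18, had 139, 159, 112 and 22 counts, a mean of 20.4 ± 12.8 TPM (SD, n = 4), and was lowest in replicate 4. Hspa5, Canx, Hsp90ab1, Hsp90aa1, Hspa8 and Hspa9 share no exon base with the other strand.

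**Figure D2:**
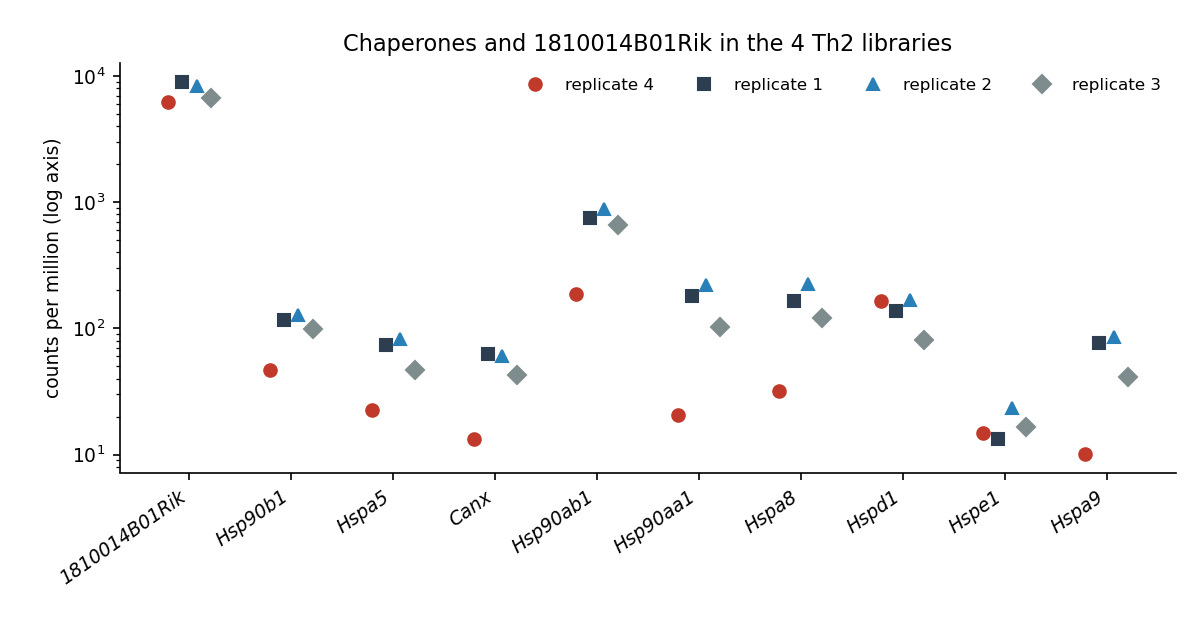
CPM of 1810014B01Rik and the 9 chaperones on a log axis, with 1 symbol per library. Replicate 4 lies lowest for Hsp90b1, Hspa5, Canx, Hsp90ab1, Hsp90aa1, Hspa8, Hspa9 and 1810014B01Rik, and within the range of the others for Hspd1 and Hspe1.

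Ordered by mean TPM, the chaperones ran Hsp90ab1, Hspd1, Hsp90aa1, Hspa8, Hsp90b1, Hspa9, Hspa5, Hspe1 and Canx. Only the step between Hsp90ab1 and Hspd1, 235.5 TPM, was larger than the summed SDs of its 2 genes. The other steps were within the summed SDs, a measure that leaves out the pairing of values by library. Hsp90aa1 stood above Hspa8 in 2 of 4 libraries, and the same held for Hspa9 over Hspa5 and for Hspa5 over Hspe1. Hspd1 stood above Hsp90aa1, and Hsp90b1 above Hspa9, in 4 of 4 libraries.

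The RefSeq promoter table (GRCm38.p6) holds windows of 300 bases, from 250 before to 50 after a gene start, for 5 of the 10 genes. The ER stress response element, which is known to be bound by the stress factor ATF6 together with NF-Y, was searched on both strands as CCAAT, then 9 bases of any kind, then CCACG. It was picked after the promoters of these genes had been read. Windows of Hspa5, Hsp90b1 and Canx, the 3 ER chaperones among the 10 genes, held it, and those of Hspd1 and Hspe1 did not. Of all 32851 windows, 39 did (0.119%). The stretches that hold it are shown 5′ to 3′ on the gene's strand, with the match in capitals.
Hspa5, chr2:34772020-34772048, plus strand: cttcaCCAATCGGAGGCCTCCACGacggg
Hsp90b1, chr10:86705528-86705556, minus strand: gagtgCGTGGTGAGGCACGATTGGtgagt
Canx, chr11:50325795-50325823, minus strand: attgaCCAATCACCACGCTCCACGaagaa
In Hsp90b1 the match shown is on the other strand and is 1 of 2 in the window. The stretch of Hspa5 lies in an exon of the authors' annotation. A match is a description of the letters and not a site of binding.

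Replicate 4 was below replicates 1 to 3 for most of the 9 chaperones. The deviation used here is the log2 CPM of replicate 4 minus the mean of replicates 1 to 3, with a prior of 0.5 counts. It was -2.93 for Hsp90aa1, -2.65 for Hspa9, -2.37 for Hspa8, -2.01 for Hsp90ab1, -2.01 for Canx, -1.54 for Hspa5 and -1.29 for Hsp90b1. Hspe1 stood at -0.23 and Hspd1 at 0.42, and 1810014B01Rik stood at -0.37. A deviation beyond -1 was found in 7 of the 9 chaperones, with a median of -2.01, against 27.5% of all 6081 features with a mean count of at least 10, whose median was -0.19. Of the features that share no exon base with the other strand, 52.2% of 2465 passed the same limit, with a median of -1.09. All 6 chaperones without shared bases were past it, with a median of -2.19. Of the 3 with shared bases, 1 was past it, Hsp90b1, with a median of -0.23 for the 3, against 9.87% of 3384 features with at least 50 shared bases and their median of -0.05. With DESeq2 size factors in place of library totals, Hsp90b1 stood at -0.96, and Hspe1 changed sign to 0.11. The limit was then passed by 6 of the 9 chaperones and 0 of the 3 with shared bases, against 22.4% of all features. The split by shared bases was made after the values were seen, and no test was run on it.

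Of the 7 T cell markers, 6 were lowest in replicate 4 in CPM, all but Il4. Deviations were -1.90 for Cd3e, -1.36 for Cd3d, -1.58 for Cd3g, -1.72 for Cd4, -3.40 for Trac, -0.70 for Gata3 and 0.10 for Il4. Only Cd3e and Gata3 among these share exon bases with the other strand. Replicate 4 was lower by more than 1 in 27.5% of all features, and in 52.2% of those without shared exon bases. The share of all features lowest in replicate 4 was not taken, so the counts of markers lowest there have no background. Cd4 had 20 counts in replicate 4, against 56, 67 and 71 in replicates 1 to 3. Trac, the constant region of the T cell receptor alpha chain, had 2 counts in replicate 4, against 19, 30 and 27 in replicates 1 to 3, while Il4 had 26 counts in replicate 4, against 24, 21 and 25 in replicates 1 to 3. Gata3, the Th2 lineage factor, had 22 counts in replicate 4, against 20, 47 and 44 in replicates 1 to 3. None of the 4 markers of other cell types that had counts was lowest in replicate 4 in CPM. Their deviations were 1.03 for Cd68, -0.03 for Cd79a, -0.10 for Csf1r and -0.18 for Cd8b1. Counts in replicates 1 to 4 were few, at 13, 6, 7 and 18 for Cd68, 9, 15, 12 and 12 for Cd79a, and 4, 3, 3 and 3 for Cd8b1. Csf1r shares 871 exon bases with the other strand, and features with at least 50 such bases had a median deviation of -0.05. The marker lists were not compared by a test. CT010467.1 held 14.4% of the counts in replicate 4, against 1.02%, 1.14% and 28.6% in replicates 1 to 3. The part of these in the chaperone values was not tested. In these bulk libraries fewer cells of a type, less RNA per cell and a technical difference between libraries cannot be told apart.

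**Figure D3:**
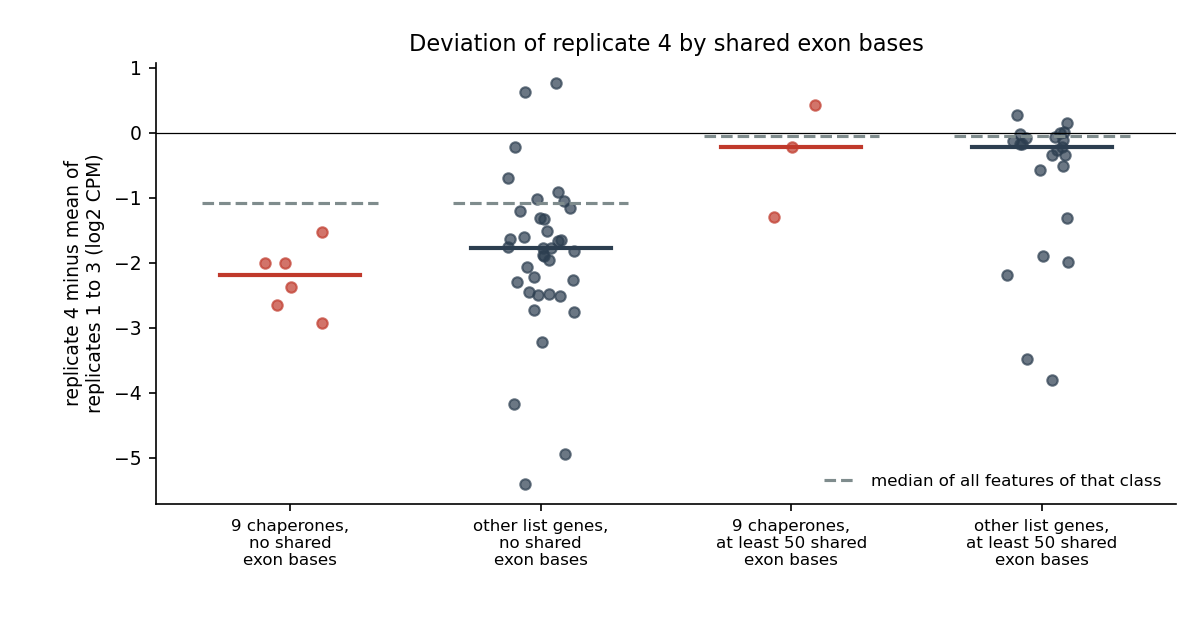
Deviation of replicate 4 from the mean of replicates 1 to 3 in log2 CPM, with 1 point per gene, for the 9 chaperones and other list genes with a mean count of at least 10, split by shared exon bases. Solid lines are group medians, -2.19 for the 6 chaperones without shared bases and -0.23 for the 3 with them, and dashed lines are the medians of all features of that class.

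Other genes of the protein folding system were taken from 10 lists, with 105 genes beside the members. In limma's moderated test of log2(TPM + 0.1) against 1 TPM, 52 of the 105 were called above 1 TPM at an adjusted p under 0.05, against 32.1% of all 17203 genes tested. Another 13 were called below, against 26.6% of all genes, 35 were not called and 5 had 0 counts. The calls below, in each list too, rest on genes near the floor, and became 6 with a pseudocount of 0.01, 0 with a mean count of at least 10, 7 in CPM against 1 CPM and 8 without replicate 1. Shared exon bases were present in 20 of the 52 genes above.

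Partners of HSP90 were mostly above 1 TPM, with 8 of 11 co-chaperones called above and 0 below. Stip1, which links HSP70 to HSP90, averaged 38.4 ± 12.7 TPM, and Ahsa1, which stimulates the HSP90 ATPase, averaged 18.3 ± 9.87 TPM (SD, n = 4 each). Trap1, the mitochondrial HSP90, averaged 3.70 ± 2.16 TPM and was called above. Of 10 other HSP70 genes, 4 were above and 3 below. Hspa1l averaged 45.8 ± 5.99 TPM but shares 1778 exon bases with the opposite gene Gm10501, and Hspa4, an HSP70-related exchange factor, averaged 21.7 ± 6.97 TPM with none shared. The inducible HSP70 genes Hspa1a and Hspa1b, which are near-identical copies and uncertain for that reason, had 0 counts and 1 count over all libraries.

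For the genes that work with HSP70, 5 of 11 exchange factors and partners were above and 1 below, as were 11 and 5 of 23 J-domain proteins. Stub1, a ubiquitin ligase that acts with HSP70, averaged 282 ± 23.9 TPM, and Grpel1, the mitochondrial exchange factor, 35.3 ± 0.682 TPM (SD, n = 4 each). Dnajc19 averaged 160.4 ± 29.0 TPM and Dnajc1 averaged 71.8 ± 7.70 TPM (SD, n = 4 each). All 4 of these overlap an opposite-strand gene, over 178 to 749 exon bases.

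The cytosolic chaperonin CCT and its partner prefoldin had 10 of 14 genes above and 0 below. Tcp1 averaged 414 ± 41.6 TPM and Cct8 averaged 47.1 ± 4.50 TPM (SD, n = 4 each), and both encode CCT subunits. Among 5 mitochondrial chaperones and proteases, 2 were above and 1 below, with Lonp1 at 9.43 ± 2.66 TPM and Clpp at 4.09 ± 2.33 TPM (SD, n = 4 each), both proteases. The ER lectins and folding enzymes had 7 of 16 above and 0 below. Their highest were Erp29 at 204 ± 40.1 TPM and Manf, a secreted ER stress protein, at 131 ± 20.1 TPM (SD, n = 4 each). Tcp1, Cct8, Erp29 and Manf each overlap an opposite-strand gene, over up to 571, 192, 2210 and 166 exon bases.

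Of 9 stress sensors and factors, 3 were above and 3 below. Ddit3, a transcription factor of ER stress, averaged 157 ± 30.8 TPM, and Atf4, which acts upstream of it, averaged 15.0 ± 7.21 TPM (SD, n = 4 each). Ddit3 shares 68 exon bases with Mars. The small heat shock proteins had few counts on this strand, with 3 of 5 at 0 in all libraries. Hspb6 averaged 10.6 ± 3.25 TPM with 122 shared bases and was called above, and Hspb1 had 0, 0, 2 and 1 counts in replicates 1 to 4.

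**Figure D4:**
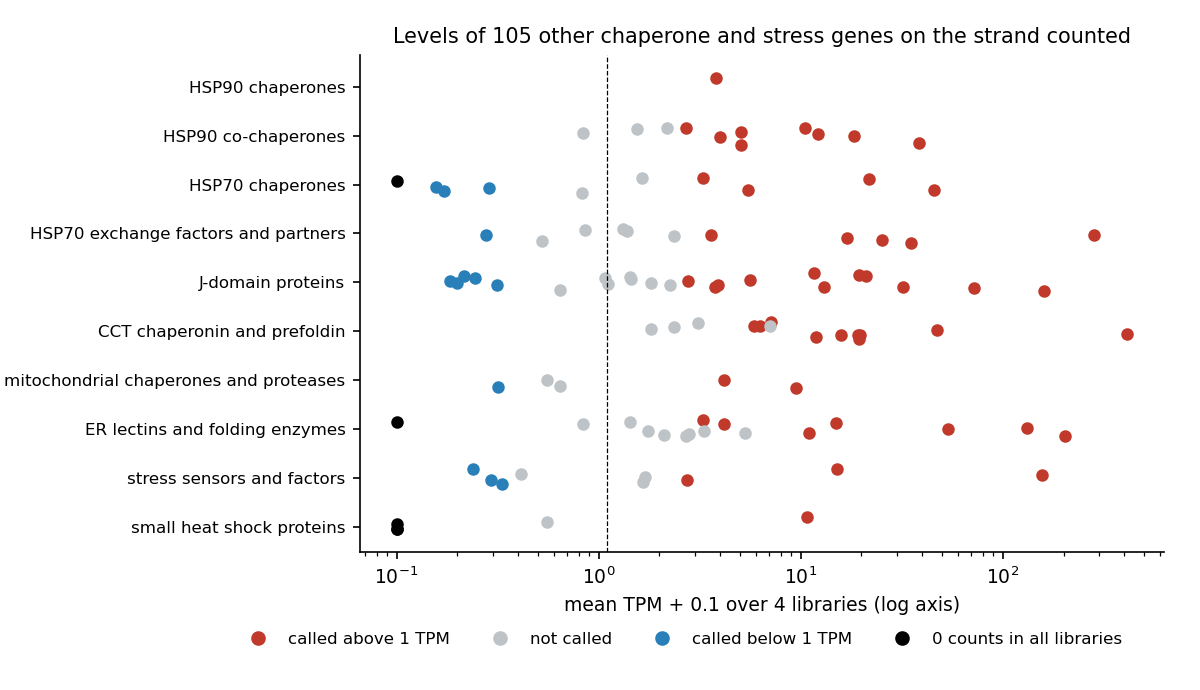
Mean TPM + 0.1 over the 4 libraries on a log axis for the 105 list genes that are not among the 10, with 1 row per list. Red marks the 52 genes called above 1 TPM, blue the 13 called below, grey the 35 not called and black the 5 with 0 counts.

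Replicate 4 was lower by more than 1 on the log2 CPM scale in 39 of the 61 list genes with a mean count of at least 10, with a median of -1.60, against 27.5% of all features. Among the 37 with no shared exon bases it was 32, with a median of -1.78, against 52.2% of all such features. Among the 23 with at least 50 shared bases it was 6, with a median of -0.22, against 9.87% of all such features. Of the HSP90 co-chaperones with such counts, 9 of 9 were lower by more than 1, as were 8 of 11 genes of CCT and prefoldin and 8 of 11 ER lectins and folding enzymes, and 1 of 6 HSP70 exchange factors and partners. The lists differ in shared exon bases, which none of those 9 co-chaperones had and 3 of those 6 exchange factors and partners had. At least 50 such bases were present in 5 of those 11 genes of CCT and prefoldin. The same held for 5 of those 11 ER lectins and folding enzymes. The lists were not compared by a test.

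Other list genes also lie opposite a gene on the other strand, though none of the 11 HSP90 co-chaperones or the 5 mitochondrial chaperones and proteases does. With at least 50 shared exon bases there were 38 pairs for 32 list genes, 33 of them with a mean count of at least 10 in either gene. The opposite gene was higher in 4 of 4 libraries in 17 pairs, the list gene in 14, and 2 were mixed. The opposite gene was at least 10-fold higher over the summed counts in 10 pairs and the list gene in 8.

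Snx22 had 6367, 6606, 6663 and 5338 counts in replicates 1 to 4, against 17, 17, 13 and 1 for Ppib, the ER cyclophilin, with 825 shared bases. Psph had 2368, 2399, 2650 and 3532 counts, against 91, 133, 130 and 30 for Cct6a, a CCT subunit, with 452 shared bases. In both pairs replicate 4 was the lowest library for the chaperone gene. Acat3 had 10280, 9824, 11261 and 9033 counts, against 2640, 2822, 2948 and 3244 for Tcp1, where the chaperone gene was not lowest in replicate 4. Gm17484 had 1119 to 1389 counts against 9 to 15 for Bag4, and Gm16796 had 494 to 640 against 5 to 8 for Pfdn4. Jmjd8 had 3201 to 3506 counts against 610 to 726 for Stub1. Cnp had 2218 to 2726 counts and Nkiras2 had 676 to 947, both opposite Dnajc7, which had 191 to 245. 4930524O07Rik had 1384 to 1727 counts against 578 to 697 for Manf. The order was reversed for Tmem116, which had 861 to 1086 counts against 2193 to 2765 for Erp29. Of the 23 pairs with a mean count of at least 10 in both genes, the deviation of replicate 4 was higher for the opposite gene in 13.

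**Figure D5:**
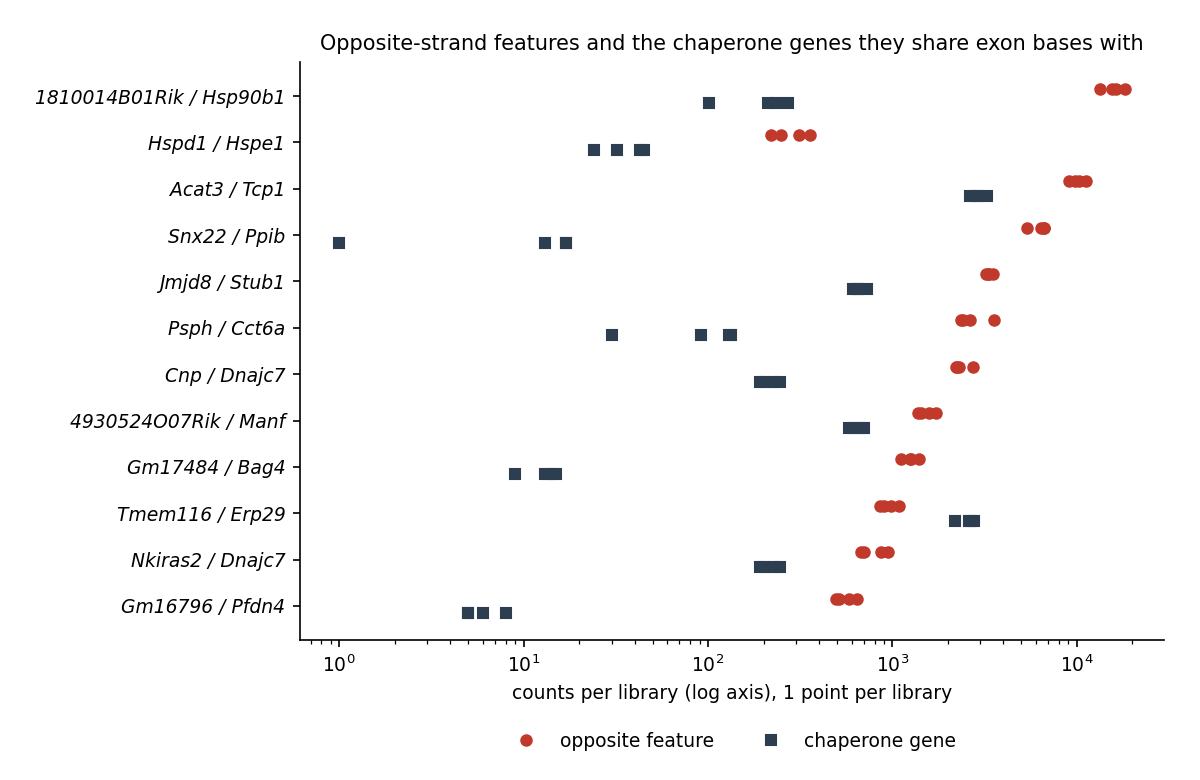
Counts per library on a log axis, with 1 point per library, for opposite-strand genes (red) and the chaperone genes they share exon bases with (dark). Beside Hsp90b1 and Hspe1, whose opposite gene here is Hspd1, the pairs drawn are those of the 10 opposite genes of highest mean count. The opposite gene lies to the right in every pair drawn except Tmem116 and Erp29, an order that this choice favours. Over the 33 pairs with enough counts, the opposite gene was higher in 4 of 4 libraries in 17 and the list gene in 14.

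The spread between the 4 libraries was tested with edgeR's quasi-likelihood fit, each gene's quasi-dispersion against the trend. It asks whether a gene varied more than the trend, and not whether it varied at all. With Benjamini-Hochberg adjustment 0 of 4190 genes passed 0.05, and 268 (6.4%) had an unadjusted p under 0.05. DESeq2, run on all 17203 genes with a count, marked 27 dispersion outliers, 0 of them among the chaperone lists. With so few marked, that 0 does not set the lists apart from other genes. In limma-trend 0 genes were called. Without replicate 4, 20 genes passed in edgeR. Unadjusted p was under 0.05 for 6 of the 10 genes, Hsp90ab1, Hsp90aa1, Hspa8, Hspa9, Canx and Hsp90b1, and the smallest adjusted p in edgeR among the 10 was 0.535. Of 31 other list genes tested it was under 0.05 in 3. The form of this test was the third of 3 run on these counts and was kept, with the real results in view, because it found the most known changes in a check on made-up counts. Those counts had the same dispersion for every gene and no shift of many genes together in a library. The check thus cannot show which form suits these libraries. In the other 2 forms 4 of the 10 genes had an unadjusted p under 0.05.

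The genes whose 4 deviations from their own mean lay nearest to the median pattern of the 9 chaperones were Nasp, Tpt1, Anp32b, Grap and Rpl11, among 2705 candidates with a mean count of at least 50. The Euclidean distance over the 4 libraries, in log2 CPM, was 0.120 for Nasp and 0.175 for Rpl11. Across the candidates the median distance was 1.68, and the members themselves lay at 0.184 to 2.09. Nasp, a histone chaperone, had 23 counts in replicate 4, against 74, 91 and 86 in replicates 1 to 3. Anp32b had 144 counts in replicate 4, against 474, 548 and 586 in replicates 1 to 3. With 4 libraries this likeness is a description, and it was not tested.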

How the data were processed

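The authors deposited raw counts per gene for each library. Per the file headers, read pairs were counted with featureCounts 1.4.6-p4 over exons by gene of GENCODE M13, with both ends aligned and strand setting 1. Per the labels the assembly is mm10. The assay is labelled total RNA-seq, but the protocol linked to it carries poly(A) in its name. Header paths name a time point that the labels do not give. The aligner's version is not given in the sources used here.

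Symbols were matched by gene ID for 50376 of 50600 genes. Exons were merged from the deposited tables and bases shared with genes on the other strand were summed. TPM was computed from the deposited counts and exon lengths. Levels were tested with limma 3.58.1 on log2(TPM + 0.1) against 1 TPM, two-sided, with trended and robust variance. Spread was tested with edgeR 4.0.16 (TMM factors, default filter), both with Benjamini-Hochberg adjustment and a threshold of 0.05. The plan did not fix the prior degrees of freedom of the spread test, and 3 forms were run on the real counts. They used a non-robust prior, the robust prior of each gene, and the largest robust prior. The last was kept because it found the most known changes in made-up counts, and that choice was made with the real results of all 3, and earlier results of these data, known. Both tests were checked on such counts, which had the same dispersion for every gene. R 4.3.3, DESeq2 1.42.0 and Python 3.11.15 were also used.

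The members and lists were chosen with earlier results of these data known. Genes named are the 10 members, genes opposite them, the 2 highest of each list by mean TPM, up to 10 genes of highest count opposite a list gene, and the 5 nearest in pattern. Other genes named were chosen after their values were seen, and markers are from the cell type lists, of which 1 gene is not reported here. Promoters are from RefSeq, exons from GENCODE M21, both on the build of the files. Alternatives were other pseudocounts, levels, filters, scalings, priors and tools, and each replicate left out. The forms of the spread test and the split of the chaperones by shared bases were added with the values in view.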

Additional observations from a re-analysis of the deposited data

Results flagged for a closer look

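The log2 CPM of the genes named here and 2 log2 ratios, 46 sets of 4 values in all, were screened for a library apart from the other 3, on a scale chosen after some of the counts had been seen. In 2 of them, replicate 3 lay low by more than Dixon's 95% critical value for 4 samples. For 4930524O07Rik, the gene opposite Manf, the gap was 0.881 of the range, and for Tcp1, the CCT subunit gene, it was 0.872. Chance flags about 1 in 20 such groups. CT010467.1 held 28.6% of the counts of replicate 3, and its part in these values was not tested.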

How the results depend on the processing

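The 52 list genes called above 1 TPM stayed within 1.5 times that count under each alternative, 46 to 67 with a replicate left out. The 13 called below became 6 with a pseudocount of 0.01, 0 with a mean count of at least 10, 23 against 2 TPM and 7 in CPM against 1 CPM, and 8 to 11 with a replicate left out, lowest without replicate 1. The 0 genes called for a spread above the trend became 345 with no filter beyond a count above 0. They became 8 where mean CPM reached 1, 1 with DESeq2 size factors, and 27 as DESeq2 dispersion outliers among 17203 genes. With a replicate left out they were 0 to 20, with 20 without replicate 4. In the spread test's other forms, added after seeing the data, the smallest adjusted p in edgeR was 0.466 with a non-robust prior and 0.895 with the prior of each gene, against 0.153 in the form kept. Those forms called 0 genes each, but 149 and 124 with no filter, 6 and 0 where mean CPM reached 1, and 18 and 0 without replicate 4. Unadjusted p was under 0.05 for 237 and 217 genes against 268. The log2 ratio of 1810014B01Rik to Hsp90b1 was 6.96 per exon base and 6.12 to 6.46 with a replicate left out. The median deviation of replicate 4 over the 9 chaperones, -2.01, was -0.23 over the 3 with shared exon bases and -1.90 to -2.11 with another replicate left out. It was -1.79 with TMM factors and -1.68 with DESeq2 size factors, which moved the median of all features to 0.03 and 0.14. The difference was -1.82 each time, which such scaling cannot change because it shifts all genes of a library alike. The cause of these changes was not tested. No paired analysis was possible because the series has 1 group. Depth limits genes with few counts, such as Hspe1 and Ppib.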
